A study of Mus musculus with 18 samples.

Results

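Pdgfra, Pdgfrb, Fap, Thy1, Pdpn, S100a4, Postn, Vim and Dpt, 9 genes in wide use as markers of cancer-associated fibroblasts, were followed across sorted cells of mouse mammary tumors and normal mammary gland. The genes were chosen by name, as the probe sets annotated to these symbols, and are 9 of the 18193 genes with a probe set of 1 symbol on the array. All 9 were on the array, with 14 probe sets in all. Where a gene had several probe sets, the brightest on average over the 17 sorted-cell arrays stands for it. Values are signal units of a one-colour Affymetrix array, and differences are on the log2(signal + 32) scale, which understates the change of genes with low signal.

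Cells of 3 mammary tumors, numbered 1, 2 and 7, were sorted by surface CD29 (integrin beta1) and CD24. The 4 tumor populations were CD29 high CD24 low (CD29H CD24L), CD29 high CD24 high (CD29H CD24H), CD29 low CD24 low (CD29L CD24L) and CD29 low CD24 high (CD29L CD24H), each with 1 array per tumor (n = 3). From cells labelled as normal mammary epithelium came 2 arrays of the gate CD29H CD24P (high CD29, positive CD24), 2 of CD29P CD24H (positive CD29, high CD24) and 1 of CD24L (low CD24). A mixed reference RNA from a supplier was on 1 array. The study is known to have used Trp53-null mammary tumors passaged by transplantation and to have found its tumor-initiating cells in the CD29H CD24H population. Tumors 1 and 2 carry the label of transplant generation 1, and tumor 7 carries none. The labels give no genotype, strain, age or treatment for any group. In a transplanted tumor the stroma can come from the recipient mouse, which the labels do not describe. CD29 and CD24 are the only sort markers the labels name, and the sources used here do not say whether stromal or blood cells were removed first.

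Fibroblasts lay down and remodel the connective tissue of the mammary gland, and in tumors they are activated and called cancer-associated fibroblasts. Platelet-derived growth factors (PDGFs) made by epithelial and endothelial cells drive their growth through the receptors encoded by Pdgfra and Pdgfrb. None of these genes is exclusive to fibroblasts. Vim, S100a4 and Pdpn are also known from tumor cells that have passed through an epithelial-mesenchymal transition, Pdpn and Vim from basal mammary epithelium, Thy1 from T cells and Pdgfrb from pericytes.

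Upstream sequences are shown for 4 members, in the windows that held a match to a searched motif. The windows of Pdgfra and Pdpn and another Postn window, chr3:54359017-54359266, held 0 matches and are not shown. Of the 4 members, Dpt, Vim and Postn rose together in CD29H CD24L tumor cells, whereas S100a4 followed the tumor rather than the gate. Each line gives the 250 bases before a transcription start, 5′ to 3′, as RefSeq has them for build GRCm38.p6. The search covered windows of 6 of the 9 members, 7 windows in all, and did not include Pdgfrb, Fap or Thy1. Capitals mark TATAAA, the TATA box, in Vim, Postn and S100a4, and in Dpt the reverse complement of CACCTG, the E-box that ZEB and SNAI repressors can bind.
Dpt, chr1:164796413-164796662, plus strand: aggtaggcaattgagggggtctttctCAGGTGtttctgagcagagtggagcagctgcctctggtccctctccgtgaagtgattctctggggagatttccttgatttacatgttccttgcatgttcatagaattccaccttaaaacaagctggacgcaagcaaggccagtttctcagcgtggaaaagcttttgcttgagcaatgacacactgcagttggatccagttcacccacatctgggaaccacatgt
Vim, chr2:13574061-13574310, plus strand: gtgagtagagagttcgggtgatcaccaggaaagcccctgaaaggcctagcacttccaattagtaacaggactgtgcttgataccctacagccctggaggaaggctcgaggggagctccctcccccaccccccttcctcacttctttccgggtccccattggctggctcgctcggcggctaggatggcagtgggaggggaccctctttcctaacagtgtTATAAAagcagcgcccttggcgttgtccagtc
Postn, chr3:54360857-54361106, plus strand: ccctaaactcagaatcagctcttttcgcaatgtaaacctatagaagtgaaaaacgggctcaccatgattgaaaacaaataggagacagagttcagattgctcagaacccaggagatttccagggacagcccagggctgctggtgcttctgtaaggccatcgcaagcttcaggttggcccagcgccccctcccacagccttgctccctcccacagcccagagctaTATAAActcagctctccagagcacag
S100a4, chr3:90603520-90603769, plus strand: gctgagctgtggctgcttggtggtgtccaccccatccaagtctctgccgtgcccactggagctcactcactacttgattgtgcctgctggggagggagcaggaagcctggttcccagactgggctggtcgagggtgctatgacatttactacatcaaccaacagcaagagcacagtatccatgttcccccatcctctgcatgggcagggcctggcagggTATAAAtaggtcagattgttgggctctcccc
TATAAA was in 3 of the 7 windows, against 12.4% of 32851 windows of all genes, with both strands searched. It began 32 bases before the start in Vim, 26 in Postn and 31 in S100a4. The TATA box was thus present in members that followed the CD29H CD24L gate and in one that did not. CACCTG was in 1 of the 7 windows, that of Dpt, where the printed strand carries its reverse complement 224 bases before the start, against 17.2% of all windows. TGACTCA (AP-1), CAGACA (SMAD), GGGCGG (GC box) and CATTCC (TEAD) were in 0 of the 7 windows, against 4.46%, 17.1%, 32.7% and 12.6% of all windows. These letters are a description of the windows only.

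All 18 arrays had a mean signal of 500.0 after trimming 2% from each end, and their medians lay between 71.6 and 104.2. Signals in that range or below were near the array background, and detection calls were not used. The ratio of 3′ to 5′ actin signal, a measure of RNA integrity and of the length of the amplified product, was 14.4 to 99.3 on the tumor arrays and 3.08 to 24.7 on the normal ones. The epithelial marker list (15 genes, among them Epcam and the keratins) summed to 28630 to 147200 on the tumor arrays, 96690 to 183100 on the CD29H CD24P and CD29P CD24H arrays, and 2226 on the normal CD24L array. Epcam, the epithelial adhesion protein, stood at 100.2 and Cd24a at 844.6 on the CD24L array, so the markers on it go against its epithelial label. The number of arrays limits the precision of every comparison, and for the normal cells p-values measure the spread between these arrays, which the labels do not tie to separate animals.

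In CD29H CD24L tumor cells, 7 of the 9 members were higher than in CD29H CD24H cells of the same tumors, and 0 were lower. The 7 were both PDGF receptors, the surface proteins Fap and Thy1, the matrix proteins Postn and Dpt, and Vim. Of all 10916 genes tested in this comparison, 2.19% were called (limma with Benjamini-Hochberg adjusted p under 0.05), all of them higher. The members' median difference was 2.74, against −0.05 over all genes tested. Pdpn and S100a4 did not pass. All 9 members passed the filter on low signal in the tumor fit, and the mean log2 level of every member in each tumor population, 7.74 or more, was above its limit of 6.97.

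**Figure D1:**
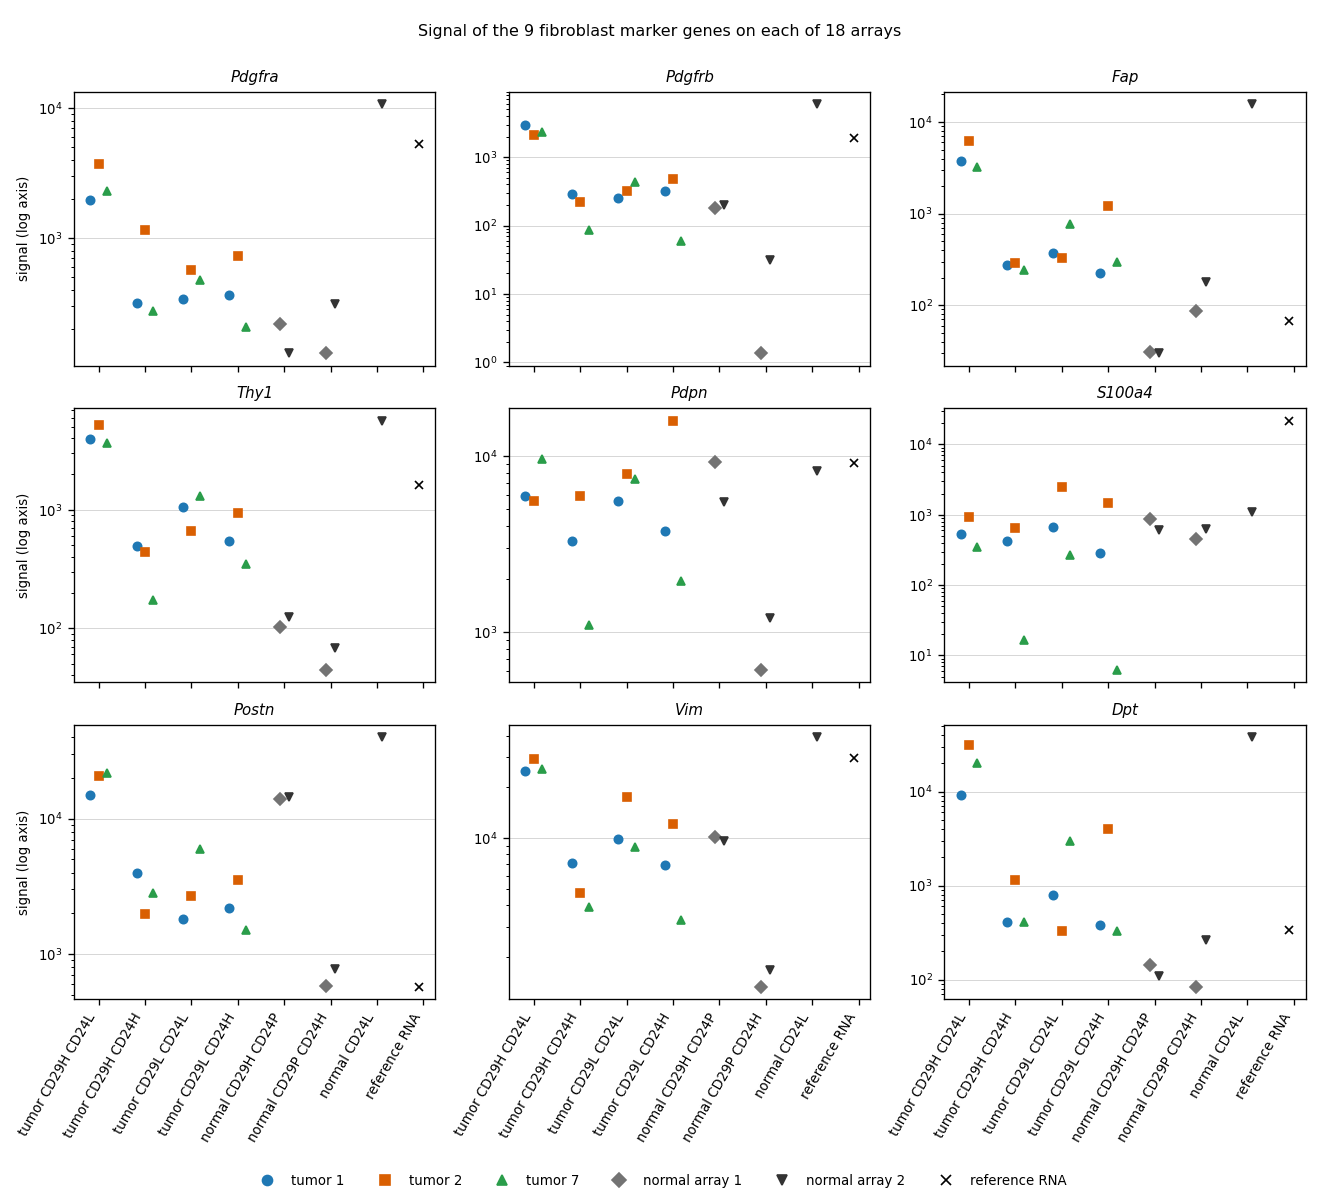
Signal of each of the 9 genes on all 18 arrays, on log axes with a separate range for each gene; marker shape and colour give the tumor or normal number, and each point is 1 array. For 7 genes (all but Pdpn and S100a4) the 3 tumor CD29H CD24L arrays lie above the 9 other tumor arrays, and the single normal CD24L array lies above every tumor array.

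The same 7 members had all 3 CD29H CD24L arrays above each of the 9 other tumor arrays. Over all genes tested, 4.02% showed that separation. With the tumor number as a block in the fit, which removes differences between tumors, the same 7 members were called again and the share of all genes called was 4.97% (4.65% higher). With this block the 7 were also called after leaving out all arrays of tumor 1, of tumor 2 or of tumor 7. Without the block, the number of members called fell to 0 without tumor 1, to 0 without tumor 2 and to 2 without tumor 7, and to 3 or 4 without the CD29H CD24L array of tumor 2, the CD29H CD24L array of tumor 7 or the CD29H CD24H array of tumor 7.

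Pdgfra encodes the PDGF receptor alpha chain, a general marker of mammary fibroblasts. In tumors 1, 2 and 7 its signal was 1973, 3702 and 2289 in CD29H CD24L cells and 314.5, 1152 and 276.3 in CD29H CD24H cells. It was 341.6, 569.1 and 477.4 in CD29L CD24L cells and 362.5, 732.7 and 207.3 in CD29L CD24H cells. The CD29H CD24L arrays did not overlap with the others, and tumor 2 was the highest tumor in each population. CD29H CD24L exceeded CD29H CD24H by 2.37 ± 0.55 (SE, 5.16-fold, adjusted p = 0.0451, limma). This was the member nearest to the threshold: it lost its call under 5 of 13 alternative settings with all arrays kept. A second Pdgfra probe set gave a difference of 1.31 ± 0.72 (adjusted p = 0.783 in limma, and 0.0274 with the tumor block), and its CD29H CD24L arrays overlapped with other tumor arrays.

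Pdgfrb encodes the beta chain, which pericytes and smooth muscle share with fibroblasts. Its signal in tumors 1, 2 and 7 was 2940, 2113 and 2330 in CD29H CD24L cells, and 294.1, 218.7 and 86.7 in CD29H CD24H cells. Between 58.6 and 480.6 was measured on the 6 CD29 low arrays, so that the CD29H CD24L arrays lay well above all others, with a gap of 2.06 on the log2 scale. The difference from CD29H CD24H was 3.53 ± 0.58 (SE, adjusted p = 0.00761, limma). The mean log2 level was 11.27 ± 0.24 in CD29H CD24L cells, 8.49 ± 0.36 in CD29L CD24L, 7.98 ± 1.31 in CD29L CD24H and 7.74 ± 0.76 in CD29H CD24H cells (SD, n = 3 each), and the ranges of the last 3 overlapped.

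Fap encodes fibroblast activation protein, a surface protease of activated fibroblasts. In tumors 1, 2 and 7 the signal was 3795, 6176 and 3225 in CD29H CD24L cells and 274.2, 292.6 and 240.1 in CD29H CD24H cells. The highest other tumor array was CD29L CD24H of tumor 2, at 1227, with the remaining 5 CD29 low arrays between 223.6 and 768.8. The CD29H CD24L arrays were above all of them, and the difference from CD29H CD24H was 3.83 ± 0.55 (SE, 14.2-fold, adjusted p = 0.00451, limma).

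Thy1 encodes the membrane glycoprotein CD90, found on fibroblasts and T cells. CD29H CD24L cells of tumors 1, 2 and 7 read 3997, 5150 and 3666, and CD29H CD24H cells read 491.7, 437.5 and 172.6. In CD29L CD24L cells it was 1060, 663.5 and 1314. The CD29H CD24L arrays were again the highest, with a difference of 3.53 ± 0.46 from CD29H CD24H (SE, adjusted p = 0.004, limma). The summed signal of 7 measured T-cell genes was also higher in CD29H CD24L than in CD29H CD24H cells, at 504 to 1015 against 98.05 to 328.5, without overlap. Only 2 of the 7 genes passed the filter on low signal, and 0 were called with or without the block. Cd8a differed by 2.04 (adjusted p = 0.215 in limma, and 0.0592 with the block). The 7 genes summed to 1578 to 8945 in CD29L CD24L cells, where Thy1 was lower. Their part in the Thy1 difference was not tested.

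Postn encodes periostin, a matrix protein that binds integrins and is made by fibroblasts and basal cells. Signals in tumors 1, 2 and 7 were 15050, 20710 and 21530 in CD29H CD24L cells and 3947, 1960 and 2828 in CD29H CD24H cells. The 6 CD29 low arrays read 1511 to 5968. Postn therefore had substantial signal in every tumor population and a separate, higher range in CD29H CD24L cells, where the difference from CD29H CD24H was 2.74 ± 0.46 (SE, adjusted p = 0.0088, limma).

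Dpt encodes dermatopontin, a small protein that helps to assemble collagen fibrils, and showed the largest difference of the 9 members. Tumors 1, 2 and 7 gave 9122, 31400 and 20360 in CD29H CD24L cells and 405.6, 1147 and 407.9 in CD29H CD24H cells. The other populations varied widely, with 4034 in CD29L CD24H cells of tumor 2, 2968 in CD29L CD24L cells of tumor 7 and 329.0 to 803.8 on the other 4 arrays. The difference was 4.89 ± 0.94 (SE, 29.6-fold, adjusted p = 0.0168, limma), and within the tumors the signal ratio of CD29H CD24L to CD29H CD24H cells was 22.5, 27.4 and 49.9.

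Vim encodes vimentin, the intermediate filament of mesenchymal and also of basal epithelial cells. Its signal in tumors 1, 2 and 7 was 24690, 29100 and 25280 in CD29H CD24L cells and 7073, 4763 and 3903 in CD29H CD24H cells. The highest of the other arrays was CD29L CD24L of tumor 2 at 17400. Vim had the narrowest gap of the 7, 0.50 on the log2 scale between the lowest CD29H CD24L array and the highest other one. The difference was 2.36 ± 0.44 (SE, adjusted p = 0.0135, limma), and the other 2 Vim probe sets gave 2.20 and 2.57.

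Pdpn encodes podoplanin, a membrane mucin of fibroblasts, lymphatic endothelium and basal epithelium. Its signal in tumors 1, 2 and 7 was 5903, 5515 and 9587 in CD29H CD24L cells, 3287, 5923 and 1099 in CD29H CD24H cells, 5517, 7926 and 7398 in CD29L CD24L cells, and 3739, 15810 and 1953 in CD29L CD24H cells. The populations overlapped, and the highest tumor array was CD29L CD24H of tumor 2. The difference between CD29H CD24L and CD29H CD24H was 1.27 ± 0.70 (SE, 95% interval −0.25 to 2.80, adjusted p = 0.72, limma). Within tumors it was 0.84, −0.10 and 3.09, so that tumor 7 alone showed a large step.

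S100a4 encodes a calcium-binding protein also called fibroblast-specific protein, and is known from macrophages and motile tumor cells as well. Its signal in tumors 1, 2 and 7 was 538.1, 934.4 and 346.2 in CD29H CD24L cells and 421.9, 655.8 and 16.3 in CD29H CD24H cells. It was 670.9, 2500 and 271.6 in CD29L CD24L cells and 287.2, 1467 and 6.20 in CD29L CD24H cells. Tumor 2 was the highest and tumor 7 the lowest in each population, and both CD24 high arrays of tumor 7 lay below the array background. The difference between CD29H CD24L and CD29H CD24H was 1.26 ± 1.25 (SE, 95% interval −1.46 to 3.99, adjusted p = 0.916, limma), with 0.33, 0.49 and 2.97 within tumors 1, 2 and 7.

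By mean level CD29H CD24L ranked first for the 7 members, and CD29L CD24L came next for 6 of them and CD29H CD24H for Pdgfra. For Pdpn and S100a4 the order was CD29L CD24L, CD29H CD24L, CD29L CD24H and CD29H CD24H, with overlapping neighbours throughout.

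Variance shares and correlations describe the members further. The 7 were picked by their calls on the same 12 tumor arrays, so both measures follow in part from that choice. Over the 12 tumor arrays, sorted population accounted for 75.1% to 88.9% of the variance of each of the 7, with Thy1 the highest and Dpt the lowest, against a median of 23.3% over all genes tested. For Pdpn the share was 28.7%. For S100a4 it was 18.9%, and 66.5% of its variance lay between tumors, against a median of 38.4% for all genes. The 7 were also close to each other across the tumor arrays: Pearson's r of their 21 pairs ranged from 0.776 to 0.968 (median 0.901), whereas the 15 pairs with Pdpn or S100a4 ranged from 0.235 to 0.817 (median 0.502). These shares and correlations are a description over 12 arrays from 3 tumors and carry no test.

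**Figure D2:**
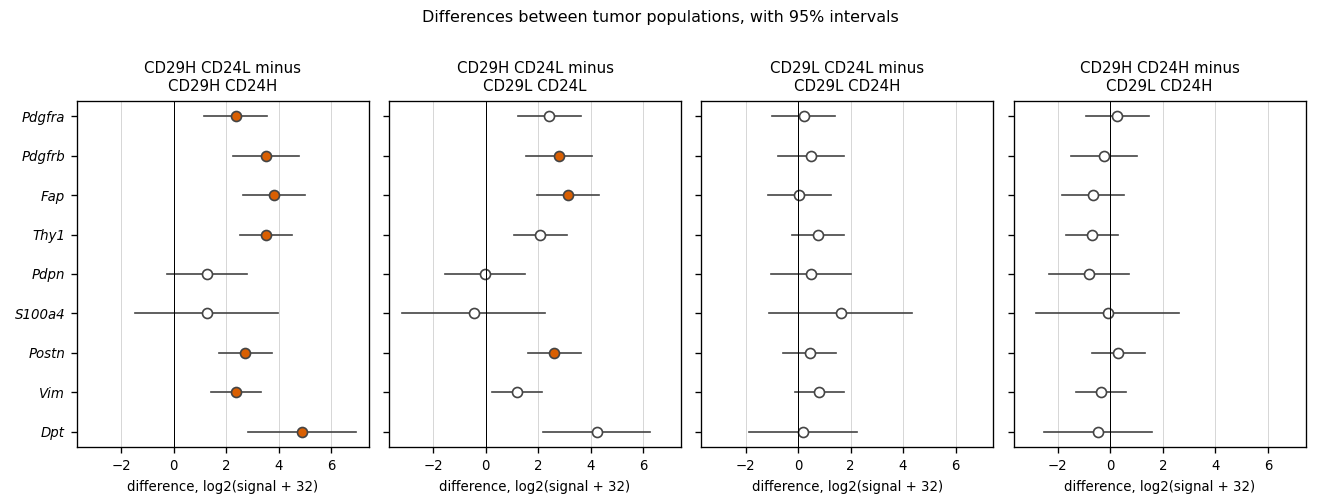
Differences between tumor populations for the 9 genes on the log2(signal + 32) scale, with the estimate as a circle, the 95% interval from limma as a line and a filled circle where the adjusted p was under 0.05. The first panel has 7 filled circles, the second has 3, and the panels for CD29L CD24L minus CD29L CD24H and CD29H CD24H minus CD29L CD24H have 0.

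CD29H CD24L cells were next compared with CD29L CD24L cells, which share the low CD24 gate. Here 3 of the 9 members passed, all higher in CD29H CD24L cells, against 1.1% of all genes tested (1.06% higher): Pdgfrb by 2.78 ± 0.58 (adjusted p = 0.039), Fap by 3.13 ± 0.55 (adjusted p = 0.0215) and Postn by 2.60 ± 0.46 (adjusted p = 0.0216, limma with SE). With the tumor block the same 7 members as above were called, against 4.48% of all genes (3.84% higher), and the block added Pdgfra at 2.42, Thy1 at 2.08, Dpt at 4.22 and Vim at 1.20 (adjusted p = 0.0482, limma). The second Pdgfra probe set gave 1.18 (adjusted p = 0.0535 with the block, limma). Pdpn differed by −0.02 and S100a4 by −0.46, and neither passed in either fit. The comparison shares its CD29H CD24L arrays with the preceding one. Its unblocked calls depended on single arrays: 0 members passed without the CD29H CD24L array of tumor 1, 2 or 7, or when tumor 1 or 2 lacked its CD29L CD24L array, and without the array pair of lowest actin ratio, whereas in the blocked fit between 5 and 6 passed without any 1 array or tumor, or without that pair.

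Markers of other cell types also differed between CD29H CD24L and CD29L CD24L cells. The pericyte gene Rgs5 was higher by 2.52 (adjusted p = 0.036), as 1 of 6 tested genes of its list. The T-cell gene Icos differed by −3.97 (adjusted p = 0.0185, limma), the lower call of 2 tested T-cell genes. With the block, 3 of 15 epithelial genes were lower in CD29H CD24L cells, Krt18 (−1.21), Cldn3 (−1.71) and Krt17 (−1.38), and so was the leukocyte gene Ptprc (−1.74, adjusted p = 0.0393, limma). Their part in the members' differences was not tested. The genes Icos, Krt18, Cldn3 and Krt17 are named here because they are the calls of their lists, after their values were seen.

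No member passed in the other pair of tumor comparisons, CD29L CD24L against CD29L CD24H cells and CD29H CD24H against CD29L CD24H cells (limma). CD29L CD24L minus CD29L CD24H cells gave a median of 0.49 over the members (all genes −0.06; 0 of 9 called with or without the block, against 0.0183% of all genes without it and 0.0916% with it). The largest member difference there was that of S100a4, 1.63 ± 1.25 (SE, 95% interval −1.09 to 4.35). CD29H CD24H cells differed from CD29L CD24H cells by a median of −0.35 (0 of 9 called with or without the block, against 0% of all genes in limma without the block and 0.00916% with it). Within that comparison the intervals still reached from −2.33 to 0.72 for Pdpn and from −1.84 to 0.54 for Fap. The widest were those of S100a4 (−2.815 to 2.63) and Dpt (−2.522 to 1.569). For none of the 9 members did the interval exclude a difference of over 1 log2 unit between the tumor-initiating population and CD29L CD24H cells.

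Whether lowering CD24 went with a larger step in CD29 high than in CD29 low cells was tested as an interaction. Without the block 0 of the 9 members and 0% of all genes passed (limma; 648 of 10916 genes had an unadjusted p under 0.05). With the block 5 members passed, against 1.92% of all genes (1.74% higher): Pdgfra by 2.15 ± 0.48 (adjusted p = 0.0335), Pdgfrb by 3.03 ± 0.66 (adjusted p = 0.032), Fap by 3.78 ± 0.65 (adjusted p = 0.0129), Thy1 by 2.77 ± 0.55 (adjusted p = 0.0219) and Dpt by 4.69 ± 1.09 (adjusted p = 0.0401, limma with SE). The effect of the gate on these 5 genes was therefore larger among CD29 high cells in the blocked fit. The second Pdgfra probe set gave 0.50 and did not pass (adjusted p = 0.728 with the block, limma). Postn (2.30, adjusted p = 0.0662) and Vim (1.55, adjusted p = 0.116) did not pass. The blocked calls depended on single tumors and arrays. In limma with the block, 0 members passed without all arrays of tumor 2, without its CD29H CD24H array, or without its CD29H CD24H and CD29L CD24L arrays, the pair of lowest actin ratio. Without all arrays of tumor 1 there was 1, and also 1 when tumor 2 lacked either CD29 low array or tumor 7 its CD29H CD24H array. Without any CD29H CD24L array, or without the CD29L CD24H array of tumor 1, there were 2, and without the CD29L CD24L array of tumor 1 there were 3.

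The RNAs of the sort markers were read in the same arrays. Cd24a signal was 34170, 27130 and 41280 in CD29H CD24L cells and 44030, 33640 and 37310 in CD29H CD24H cells of tumors 1, 2 and 7, a difference of −0.18 ± 0.32 (SE, adjusted p = 0.975, limma). Itgb1, the gene of CD29, was 3152, 5660 and 5620 in CD29H CD24L cells and 458.4 to 2064 in CD29L CD24L cells, a difference of 2.15 ± 0.85 (SE, adjusted p = 0.462 in limma, and 0.0232 with the block).

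Epithelial RNA was present in the population with the highest fibroblast markers. The epithelial list summed to 42320, 28630 and 94460 in CD29H CD24L cells of tumors 1, 2 and 7, and to 50250, 54280 and 121800 in CD29H CD24H cells. In each tumor the CD29H CD24L sum was the lower of the pair, and the ranges overlapped. Of the 15 epithelial genes 0 passed in this comparison, with or without the block, and their median difference was −0.34. Epcam was 12090, 7253 and 9408 in CD29H CD24L cells and 14390, 20070 and 25940 in CD29H CD24H cells, which do not overlap, but the difference of −1.06 ± 0.33 (SE) had an adjusted p of 0.212 in limma. On the normal CD24L array, where Epcam was at 100.2, 7 of the members were above every tumor array. An array of sorted cells averages over all cells in the gate, so that more fibroblasts among the sorted cells and more of a marker's RNA per tumor cell cannot be told apart, nor can fewer cells of a type and less RNA per cell.

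**Figure D3:**
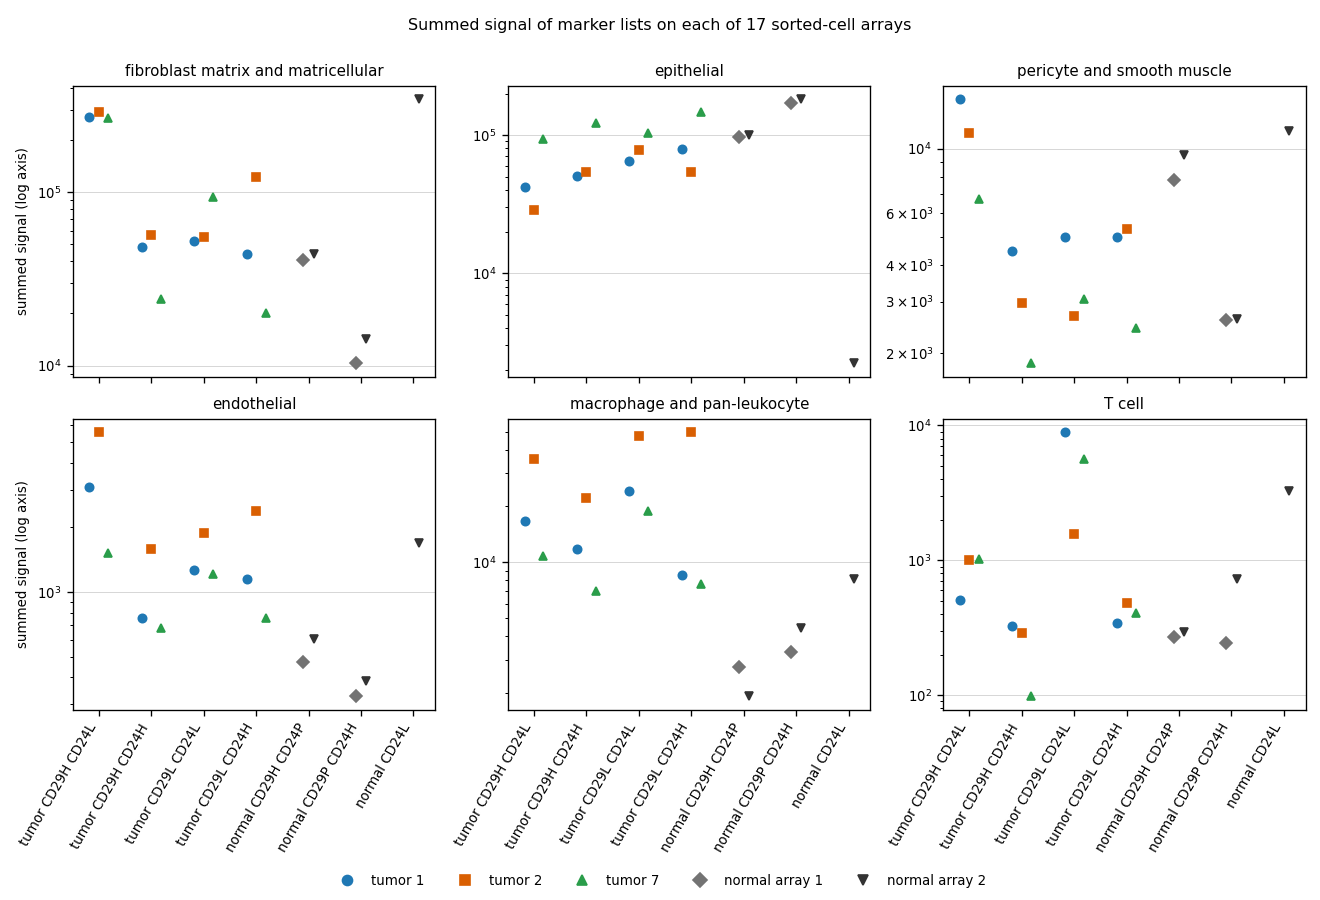
Summed signal of 6 marker lists on the 17 sorted-cell arrays, on log axes with a separate range for each list; each point is 1 array and marker shape and colour give the tumor or normal number. The fibroblast matrix list is highest on the CD29H CD24L tumor arrays (268900 to 292300) and the normal CD24L array (346300), and the epithelial list is lowest on the normal CD24L array (2226).

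Other fibroblast genes moved with the members. Of 15 tested matrix genes 11 were higher in CD29H CD24L than in CD29H CD24H cells and 0 lower, with a median difference of 3.41. The collagen genes Col1a1 (2.91, adjusted p = 0.118), Col1a2 (2.40, adjusted p = 0.102) and Col3a1 (2.02, adjusted p = 0.179, limma) did not pass. With the block 14 matrix genes were higher, these collagen genes among them. Examples were Pcolce, the enhancer of procollagen processing (4.50, adjusted p = 0.00454), the proteoglycan decorin Dcn (4.34, adjusted p = 0.0117), Mfap5 of elastic microfibrils (4.10, adjusted p = 0.0048) and Fstl1 (3.71, adjusted p = 0.00911, limma). Of 6 tested genes of the fibroblast state that is shared between tissues, 5 were higher, among them Pi16 (4.50), the stem and stromal cell glycoprotein Cd34 (3.79), the peptidase Dpp4 (2.98) and Col15a1 (2.35). Some of these genes also differed between normal CD29H CD24P and CD29P CD24H cells. Of the 15 matrix genes 6 were higher there and 0 lower, against 14.1% of all genes higher. Among the 6 were Fstl1 (4.99, adjusted p = 0.000206) and Pcolce (0.91, adjusted p = 0.0465, limma), but not Dcn (−0.01) or Mfap5 (−0.42). Cd34 was higher (2.71, adjusted p = 0.00242) and Dpp4 lower (−1.72, adjusted p = 0.00484, limma). The filter of that fit included the CD24L array.

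Genes used to name classes of cancer-associated fibroblasts differed in how many passed. Of 8 tested inflammatory genes 5 were higher, including the hyaluronan synthase Has1 (3.80, adjusted p = 0.00955), the cytokine Il6 (3.68, adjusted p = 0.023), and the chemokines Ccl7 (3.59, adjusted p = 0.00911) and Cxcl12 (3.14, adjusted p = 0.004, limma). With the block 6 inflammatory genes were higher. Of 8 tested myofibroblastic genes 3 were higher: Col12a1 (3.36), the membrane protein Lrrc15 (3.29) and tenascin C, Tnc (3.12). Acta2, the smooth muscle actin that defines this class, was 12110, 13310 and 11910 in CD29H CD24L cells of tumors 1, 2 and 7 and 13000, 2929 and 831.1 in CD29H CD24H cells, a difference of 1.95 ± 1.01 (SE, adjusted p = 0.662, limma). Its CD29H CD24L arrays were level, and the tumors differed in the other populations. Acta2 was also higher in normal CD29H CD24P than in CD29P CD24H cells (4.745, adjusted p = 1.38e-06, limma), as 1 of 6 genes called higher there of 8 tested in its list. Of 6 tested antigen-presenting genes 0 passed, and with the block 1 did, Saa3 (3.26, adjusted p = 0.000593, limma). No list was compared with another by a test.

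Of 8 tested mesenchymal transcription factors 3 were higher in CD29H CD24L cells: Zeb1 (3.25, adjusted p = 0.0192), Prrx1 (3.13, adjusted p = 0.0428) and Twist2 (1.96, adjusted p = 0.0248, limma). Zeb2 differed by 2.31 and did not pass (adjusted p = 0.143 in limma, and 0.00146 with the block). With the block 5 of the 8 factors were higher. These factors are found both in fibroblasts and in tumor cells after an epithelial-mesenchymal transition. Between normal CD29H CD24P and CD29P CD24H cells 2 of 5 tested factors were higher. Prrx1 was among them (3.08, adjusted p = 4.52e-05), and Zeb1 did not pass (−0.85, adjusted p = 0.114, limma). Zeb1 signal was 3004, 6528 and 2268 in CD29H CD24L cells of tumors 1, 2 and 7 and 471.1, 536.4 and 154.0 in CD29H CD24H cells, and on the normal CD24L array it was 5662.

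Of the 4 PDGF ligands, 0 passed between CD29H CD24L and CD29H CD24H cells without the block. Pdgfd, the ligand of PDGF receptor beta, differed by 2.48 ± 0.64 (SE, adjusted p = 0.0827 in limma, and 0.0047 with the block), and was higher than in CD29L CD24L cells by 3.09 ± 0.64 (SE, adjusted p = 0.039, limma). Its signal was low, 376.1, 1027 and 413.4 in CD29H CD24L cells against 34.1 to 193.8 in CD29H CD24H cells. Pdgfc, a ligand of receptor alpha, did not follow the receptors: it was 8351, 9436 and 3483 in CD29H CD24L cells and 10870, 9093 and 3107 in CD29H CD24H cells, a difference of −0.05 ± 0.75 (SE, adjusted p = 0.995, limma). Of the 3 TGF-beta ligands 0 passed, and with the block Tgfb2 (1.12, adjusted p = 0.0441) and Tgfb3 (1.25, adjusted p = 0.0213, limma) did.

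Markers of other stromal cells were counted in the same arrays. Of 6 tested pericyte and smooth muscle genes 2 were higher, Rgs5 (2.46, adjusted p = 0.023) and Abcc9 (2.06, adjusted p = 0.0386, limma), and 3 were with the block. All 9 measured genes of this list summed to 6720 to 14790 in CD29H CD24L cells and 1845 to 4459 in CD29H CD24H cells. Of 5 tested endothelial genes 0 passed, and 3 did with the block. The 9 endothelial genes summed to 1513 to 5567 in CD29H CD24L cells and 681.7 to 1585 in CD29H CD24H cells, with Pecam1, their defining gene, at 14.8 to 41.5 and 6.09 to 12.6, below the array background in both. Of 8 tested macrophage and pan-leukocyte genes 0 passed, and the sums overlapped (10820 to 35590 against 6996 to 22010). Their part in the members' differences was not tested.

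The single normal CD24L array held the highest or nearly the highest signal of most members. Pdgfra stood at 10760, Pdgfrb at 5973, Fap at 15710, Thy1 at 5646, Postn at 39730, Vim at 39020 and Dpt at 37640. Each of these was above every other normal and every tumor array. Against the highest of the 4 other normal arrays the signal ratio was 34.5 for Pdgfra, 29.7 for Pdgfrb, 87.3 for Fap, 45.2 for Thy1 and 143.0 for Dpt, but 3.84 for Vim and 2.75 for Postn. Over all genes tested, 23.2% were highest on this array among the normal ones and 3.28% were over 4-fold above the next. S100a4 at 1112 was 1.26 times the next normal array, and Pdpn at 8246 was 0.894 of it. There is no replicate of this array and hence no test.

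**Figure D4:**
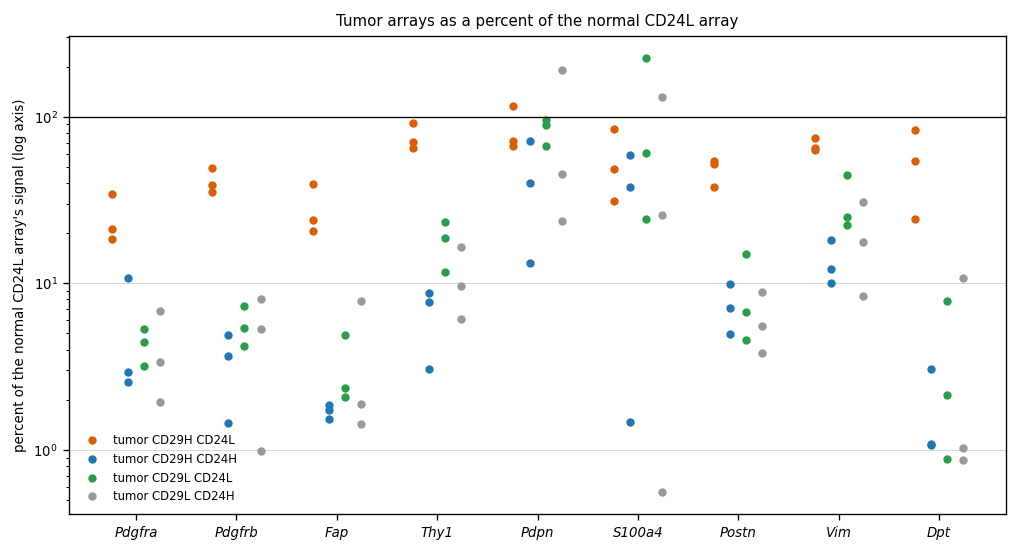
Signal of each of the 9 genes on the 12 tumor arrays as a percent of its signal on the single normal CD24L array, on a log axis, with 1 point per array and colour for the population; the line marks 100%. CD29H CD24L arrays reach 18.3% to 91.2% for Pdgfra, Pdgfrb, Fap, Thy1, Postn, Vim and Dpt, and the populations mix for Pdpn and S100a4.

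Set against that array, the members were not all at the same fraction in CD29H CD24L tumor cells. Pdgfra reached 18.3% to 34.4% of its CD24L signal, Fap 20.5% to 39.3% and Pdgfrb 35.4% to 49.2%. Postn reached 37.9% to 54.2%, Vim 63.3% to 74.6%, Thy1 64.9% to 91.2% and Dpt 24.2% to 83.4%. The ranges of Pdgfra and Fap lay wholly below those of Vim and Thy1. In CD29H CD24H cells the same genes were at 1.08% to 18.1%, with Vim the highest and Dpt the lowest. Whether normal CD24L cells are a fitting reference for tumor fibroblasts was not tested.

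Among the normal epithelial populations, CD29H CD24P cells, which carry basal markers (Krt14 at 17950 and 18830, against 134.8 and 236.0 in CD29P CD24H cells), exceeded CD29P CD24H cells in Postn, Pdpn and Vim. Postn was higher by 4.35 ± 0.23, Pdpn by 3.01 ± 0.36 and Vim by 2.70 ± 0.22 (limma with SE, adjusted p = 3e-06, 0.000248 and 2.5e-05). The fit also called Pdgfrb (2.27 ± 0.35, adjusted p = 0.00111) and Fap (−1.34 ± 0.33, adjusted p = 0.014, limma with SE). Those 2 genes passed its filter on low signal only through the CD24L array, which is not compared: their mean log2 levels over the 4 compared arrays, 6.66 and 6.64, lay under the limit of 6.77 that these arrays alone give, and 3 of the 7 members then tested were called. In this comparison 28.7% of all genes passed (14.1% higher and 14.6% lower; 31.5% in all with the preparation as a block, under which the same 5 members passed), so that 5 of 9 members is to be read against a high background.

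The signals show which of these normal differences were sizable. Postn was 14070 and 14440 in CD29H CD24P cells and 577.0 and 775.2 in CD29P CD24H cells. Pdpn was 9223 and 5485 against 609.5 and 1197, and Vim 10170 and 9520 against 1330 and 1671. For these 3 genes the signals of basal cells lay between the lowest and the highest tumor array. Postn and Vim in basal cells were below every CD29H CD24L tumor array, the lowest of which read 15050 and 24690. Basal Postn was above all 9 other tumor arrays, which read 5968 at most. The Fap and Pdgfrb calls, by contrast, were made near background: Fap was 31.2 and 29.9 against 86.4 and 180.0, and Pdgfrb 179.1 and 201.4 against 1.36 and 31.8. Pdgfra (−0.22), Thy1 (0.73, adjusted p = 0.0857), Dpt (−0.23) and S100a4 (0.44) did not pass in limma. Of the 4 PDGF ligands, Pdgfa (1.42, adjusted p = 0.0185) and Pdgfc (1.38, adjusted p = 0.00239, limma) were higher in CD29H CD24P cells. Pdgfd, at 119.4 and 135.6 against 51.8 and 31.7, was called too (1.13, adjusted p = 0.0191, limma) at signals near background.

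**Figure D5:**
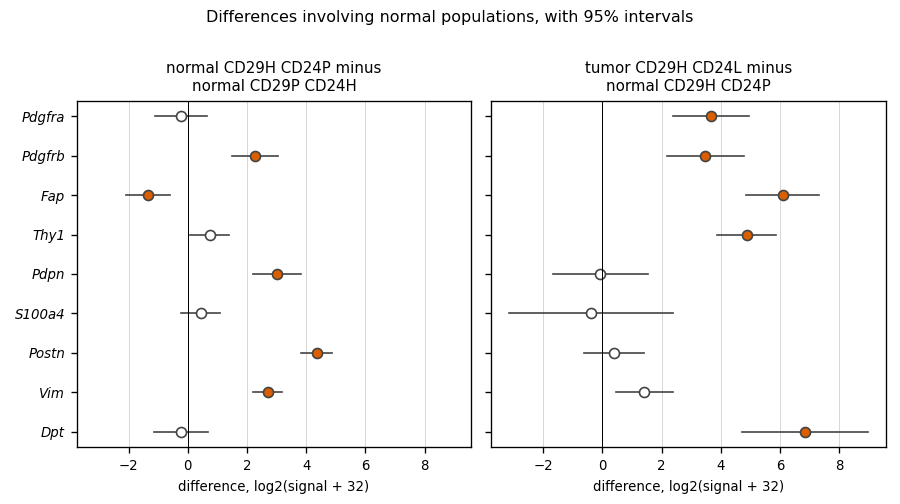
Differences for the 9 genes on the log2(signal + 32) scale between the 2 normal epithelial populations and between tumor CD29H CD24L and normal CD29H CD24P cells, with the estimate as a circle, the 95% interval from limma as a line and a filled circle where the adjusted p was under 0.05. Postn, Pdpn and Vim are high in the first panel and near or under 1.42 in the second, whereas Pdgfra, Fap, Thy1 and Dpt are at 3.68 to 6.84 in the second. The filled circles of Pdgfrb and Fap in the first panel rest on signals near background.

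Tumor CD29H CD24L cells were then set against normal CD29H CD24P cells. Of the 9 members 5 were higher and 0 lower, against 11.9% of all genes called (6.84% higher): Dpt by 6.84 ± 1.00 (adjusted p = 0.000491), Fap by 6.09 ± 0.58 (adjusted p = 1.6e-05), Thy1 by 4.87 ± 0.47 (adjusted p = 1.6e-05), Pdgfra by 3.68 ± 0.60 (adjusted p = 0.00116) and Pdgfrb by 3.48 ± 0.61 (adjusted p = 0.00192, limma with SE). Their signals did not overlap: Dpt, for example, was 109.4 and 144.1 on the normal CD29H CD24P arrays and at least 9122 in the tumor cells. Postn (0.40 ± 0.47, adjusted p = 0.641), Pdpn (−0.07 ± 0.75, adjusted p = 0.972) and S100a4 (−0.37 ± 1.30, adjusted p = 0.897) did not pass.

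Vim was at the threshold in this comparison, with a difference of 1.42 ± 0.45 (SE, adjusted p = 0.0547 in limma, and 0.0472 with tumor and preparation as a random block, which called 12.4% of all genes). Its probe sets disagreed: one gave 1.67 (adjusted p = 0.0337) and another gave 0.50 (adjusted p = 0.57, limma). Shifting each array to a common median moved the median of all genes from 0.03 to −0.13 and the calls from 747 higher and 549 lower to 620 higher and 710 lower, with the same direction for each called member. With the actin ratio as a covariate 3 members passed; Pdgfrb (4.15, adjusted p = 0.0792) and Dpt (6.68, adjusted p = 0.0911, limma) no longer did. The actin ratio was 56.8 to 77.0 on these tumor arrays and 3.08 to 7.09 on these normal ones.

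Markers of other cell types also differed between these groups. Of 8 tested macrophage and pan-leukocyte genes 6 were higher in the tumor cells, of 5 tested endothelial genes 4, of 7 tested pericyte and smooth muscle genes 5 (with Myh11, smooth muscle myosin, lower, at −6.41), of 8 mesenchymal transcription factors 6 and of 15 matrix genes 11. Fabp4, the 1 adipocyte gene tested, was higher by 4.97 (adjusted p = 0.000634, limma). Of 15 epithelial genes 2 were higher, Cldn4 (2.29) and Cldn7 (4.02), and 1 was lower, Krt17 (−4.74). With the random block 4 were lower, adding the keratins Krt5 (−4.96), Krt14 (−3.65) and Krt19 (−4.06, adjusted p = 0.0178, limma). Epcam, at 8456 and 10200 on the normal arrays, differed by 0.01 ± 0.35 (SE, adjusted p = 0.988, limma). Their part in the members' differences was not tested.

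The reference RNA, a commercial mixture, differed from the sorted cells in which members it held. S100a4 reached 21720 there, 8.69 times the highest sorted-cell array, whereas Fap was at 66.7 and Dpt at 340.1. Pdgfra was at 5347, Vim at 29450 and Postn at 574.6. The array has no replicate.

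For each member the 3 genes with the most similar profile over the 17 sorted-cell arrays were taken, by Pearson's r among 10915 other genes. Nearest to Fap were Ccdc80 (0.986), Ebf1 (0.982) and Pla1a (0.981), and nearest to Dpt were Efemp1 (0.983), Pi16 (0.98) and Ccdc80 (0.978). Pdgfra was nearest to Igf1 (0.976), Ogn and Lum, Pdgfrb to Col6a1 (0.979), Serping1 and Tfpi2, and Thy1 to Col5a3 (0.981), Adam12 and Kcne4. Postn was nearest to P3h1 (0.978), Pcsk5 and Lrp1, and Vim to Vcam1 (0.962), Bgn and Cyp7b1. Pdpn was nearest to Lrig3 (0.876), Ap2a2 and Timp3, and S100a4 to Elob (0.879), Tpp1 and Stag1, at lower values than the first gene of the other 7. The arrays share tumors and preparations, so these values are a description.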

How the data were processed

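RNA of sorted cells was extracted with a PicoPure kit and amplified by a T7 method over 2 cycles before hybridisation, per the labels' protocols. The deposited intensity values are GCOS signals, per the submitters' processing notes (no version stated), and each array had a 2% trimmed mean of 500.0. Of 45101 probe sets, 64 controls were left out, 34945 carried 1 symbol and 932 several in the platform annotation, and the brightest probe set on average over 17 sorted-cell arrays stood for each gene. Log2(signal + 32) was fitted with limma 3.58.1 (R 4.3.3, intensity trend), after leaving out the 40% of genes lowest in mean, with Benjamini-Hochberg adjustment over 10916 genes. Tumor comparisons were fitted on the 12 tumor arrays, the normal comparison on the 5 normal arrays, and the tumor to normal comparison on all 17. Tables and plots were made with Python 3.11.15, pandas 2.3.3 and matplotlib 3.10.9.

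Arrays with 1 tumor number come from the same tumor. Correlations of their deviations from group means were 0.391 to 0.727 (18 pairs). The tumor block is therefore given beside member results it changes, and beside list counts it changes in the first comparison. For different tumors they were −0.67 to −0.0546 (48 pairs), but centring on means of 3 arrays in part forces these values below 0. For tumor against normal cells the block was random. Named genes are the members, the sort markers and defining markers of other cell types, up to 4 tested genes of each list with the largest difference between CD29H CD24L and CD29H CD24H cells, and the 3 most similar genes for each member. Members and lists were chosen with earlier results of these data known. Tested on simulated data of the first comparison, the fit recovered most of the large changes and missed most of the smallest. The simulated arrays were independent and held no tumor differences, unlike the data. Alternatives were the offset, normalization, filter, probe set rule, trend, actin ratio, block, arrays in the fit and leaving out arrays. Genome coordinates are those of the RefSeq windows only.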

Additional observations from a re-analysis of the deposited data

Results flagged for a closer look

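In the fit with the tumor block, the step from CD24 high to CD24 low cells differed between CD29 high and CD29 low tumor cells for 5 members: it was larger in CD29 high cells by 2.15 for Pdgfra, 3.03 for Pdgfrb, 3.78 for Fap, 2.77 for Thy1 and 4.69 for Dpt (log2, limma with Benjamini-Hochberg adjusted p from 0.0129 to 0.0401). Without the block 0 passed. The blocked calls depended on single tumors and arrays, and 0 remained without all arrays of tumor 2. The second Pdgfra probe set gave 0.50 and did not pass with the block (adjusted p = 0.728, limma).

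The normal CD24L array, a single array that enters no test, stood above the highest of the 4 other normal arrays by a signal ratio of 34.5 for Pdgfra, 29.7 for Pdgfrb, 87.3 for Fap, 45.2 for Thy1 and 143.0 for Dpt.

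The reference RNA, which is also outside the comparisons, had 8.69 times the S100a4 signal of the highest sorted-cell array.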

How the results depend on the processing

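Counts are members called of 9. CD29H CD24L against CD29L CD24L had 3, which became 6 with a larger offset, 6 after a median shift, 6 with all 17 arrays in 1 fit, 7 with the tumor block, 0 without the 2 arrays of lowest actin ratio and 5 without them with the block; leaving that pair out was chosen after seeing the data, as were the block without 1 tumor and the filter on 4 arrays. The interaction went from 0 to 5 with the block, and to 4 with the block without the CD29H CD24H array of tumor 1. The normal comparison went from 5 to 3 with the lowest 60% of genes left out and to 3 with all 17 arrays in 1 fit, where Pdgfrb (adjusted p = 0.0519) and Fap (adjusted p = 0.272, limma) lost their calls, and to 3 when filter and fit used only the 4 compared arrays, where neither gene was tested. Without a filter Fap had an adjusted p of 0.0556 (limma). Tumor against normal cells went from 5 to 3 with the actin covariate. Causes were not tested. Leaving out arrays or tumors, with or without the block, gave 0 to 7 members for CD29H CD24L against CD29H CD24H, 0 to 6 against CD29L CD24L, 0 to 0 in the other pair of tumor comparisons, 0 to 6 for the interaction, 5 to 7 for the normal and 5 to 6 for the tumor to normal comparison. Of 911 member values under alternatives, 0 reversed, 73 lost and 84 gained a call.

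Over all genes, the first comparison called 239, 135 with the stricter filter and 543 with the block. The second called 120, 67 with an offset of 1, 72 with the actin covariate, 74 with the stricter filter, 218 with the larger offset, 208 with 17 arrays and 489 with the block. The interaction called 0, and 210 with the block. The normal comparison called 3131, and 2080 or 855 under the alternatives above. Tumor against normal called 1296, and 842 with the stricter filter, 152 with the actin covariate and 2052 with only the compared groups. A fixed block could not be fitted there. Signals near the array median limit the low members, Pdgfrb and Fap in normal epithelium and S100a4 in tumor 7.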
